A study of Arabidopsis thaliana with 8 samples.

Results

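The WRKY transcription factors were followed in whole Arabidopsis thaliana seedlings labelled E2Fa-Dpa and in wildtype seedlings. Members were the probe sets whose single annotated symbol is WRKY followed by a number. There were 6 of them, each the only probe set of its gene: WRKY6, WRKY20, WRKY22, WRKY42, WRKY47 and WRKY53, out of 13350 gene symbols that stand alone on a probe set. The series holds 8 one-colour ATH1 arrays, 4 of E2Fa-Dpa seedlings and 4 of wildtype seedlings. Both groups are of the Col-0 accession, were grown on agar with Murashige and Skoog salts at 22 °C under 16 h of light and 8 h of dark, and were harvested as total seedlings 6 days after germination, 8 days after sowing. E2Fa and DPa form a dimer that binds promoters of cell cycle genes. The labels name the E2Fa-Dpa group without saying how the seedlings were made. In published work the name stands for plants that overexpress both genes. Nothing in the labels tells separately grown samples from repeat preparations of one, so the p-values given here reflect the scatter of the 4 arrays of a group, which may be technical in part.

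WRKY proteins are a large plant family named for a short run of amino acids in their DNA-binding domain. Most bind a promoter element called the W box, which is common in defence and senescence genes and also in promoters of WRKY genes themselves, so that members of the family act on one another. The family is best known for fast transcriptional responses to microbes, wounding, nutrient shortage and ageing. The family is divided into groups by the number of WRKY domains and by the type of zinc finger. Of the 6 measured members, WRKY6, WRKY42 and WRKY47 belong to subgroup IIb, WRKY20 to group I, whose proteins carry a pair of WRKY domains, WRKY22 to subgroup IIe and WRKY53 to group III.

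The measured genes are a small piece of the family. The gene table of RefSeq (assembly TAIR10.1) holds 67 genes with a WRKY symbol, so the 6 members are 8.96% of them, and the others were not analysed here. The members lie at the loci AT1G62300 (WRKY6), AT4G26640 (WRKY20), AT4G01250 (WRKY22), AT4G04450 (WRKY42), AT4G01720 (WRKY47) and AT4G23810 (WRKY53). Thus 5 of 6 are on chromosome 4, which holds 16 of the 67 WRKY genes and 14.6% of all probe sets that name 1 gene. The members are thus no even sample of the family, because the annotation decided which genes could be named. A seventh gene, ZAP1 (AT2G04880), is listed in RefSeq with the synonym WRKY1 and is described at the end of the values as an addition.

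The arrays fall into 2 sets by the signal of a control RNA, which the labels do not name. A Bacillus control RNA, dap, averaged 116 and 94.2 signal units on E2Fa-Dpa replicates 1 and 4 and 93.0 and 79.9 on wildtype replicates 3 and 4. On the other 4 arrays it lay between 2.11 and 3.48. Each set holds 2 arrays of each group, so the arrays form 4 pairs of 1 group and 1 set. Over all tested probe sets the 2 arrays of a pair correlated at 0.974 to 0.994 on the log2 scale, arrays of the same group in different sets at 0.949 to 0.968, and arrays of different groups at 0.910 to 0.962. Should the 2 arrays of each pair stem from a single RNA, every group would have 2 samples and not 4. The authors' MAS5 signals are linear and scaled to a trimmed mean of 100 per array. A signal is a property of its own probe set, so levels of the WRKY genes are compared here between samples and not between genes. Only the marker check adds up signals of different probe sets, and such sums are led by the brightest one.

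No WRKY gene passed the test between E2Fa-Dpa and wildtype seedlings. WRKY47 and WRKY53 passed in a second fit with the array set as a block, which called 21.4% of all probe sets. Neither passed when paired arrays were a random block (adjusted p = 0.272 and 0.259) or averaged (0.560 and 0.577). WRKY47 had a log2 fold change of 0.78 in E2Fa-Dpa over wildtype seedlings and WRKY53 one of 0.50, with wildtype signals of WRKY53 near the added constant of 16. WRKY6, WRKY20 and WRKY22 had log2 fold changes between 0.19 and 0.28 and WRKY42 had -0.08, none of them past the threshold. The test was limma on log2(signal + 16), fitted over 22746 probe sets and all 8 arrays, with Benjamini-Hochberg adjustment and a threshold of 0.05, and it called 7.3% of all probe sets. By the unadjusted p of the same fit 2 of 6 members passed, against 23.3% of all probe sets. With whole seedlings, more cells that express a gene and more RNA per cell cannot be told apart.

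**Figure D1:**
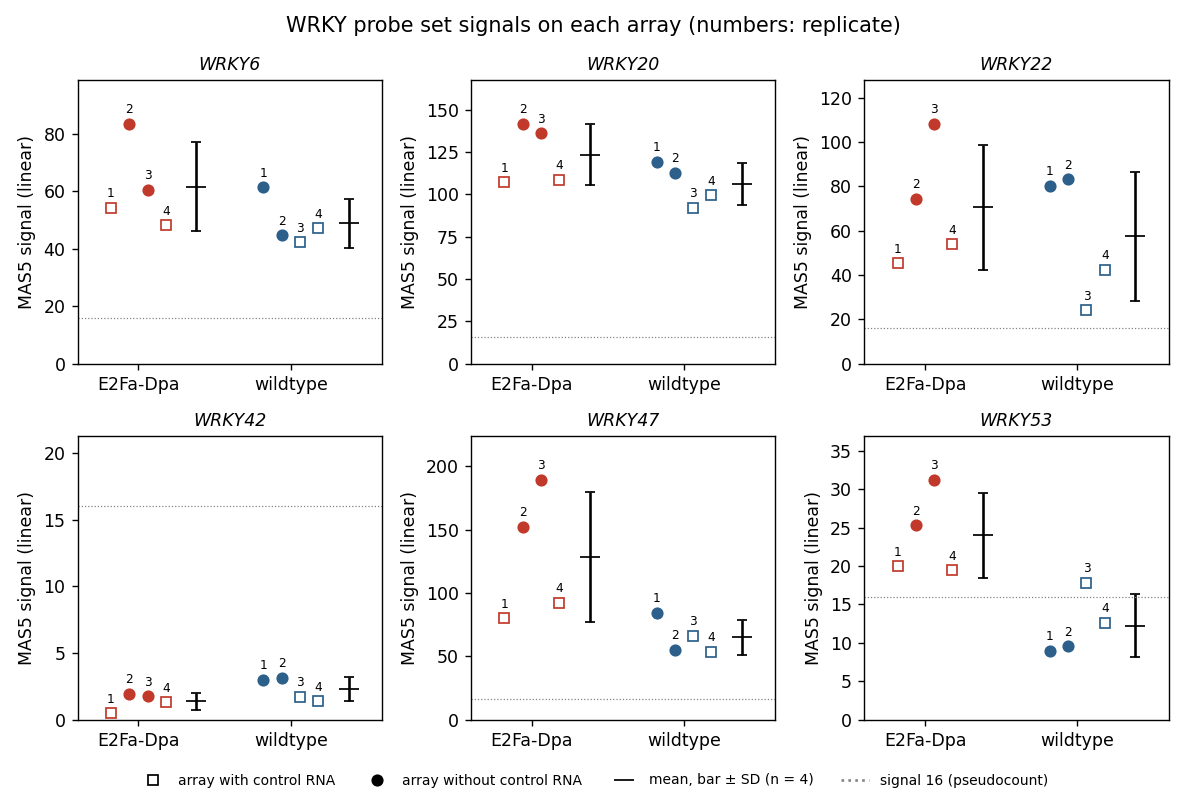
MAS5 signal (vertical axis, linear scale from 0, its own range for each gene) of the 6 WRKY probe sets on each array, with E2Fa-Dpa on the left and wildtype on the right. Open squares are arrays with control RNA, filled circles arrays without it, numbers are replicates, the black bar is the mean ± SD (n = 4) and the dotted line a signal of 16. For WRKY53 the 4 E2Fa-Dpa arrays (19.5 to 31.3) lie above the 4 wildtype arrays (8.95 to 17.9), and in the other 5 panels the groups overlap.

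WRKY53 is a regulator of leaf senescence whose transcript is raised early in ageing leaves and by hydrogen peroxide, and whose protein interacts with the kinase MEKK1. Its signal was 20.0, 25.3, 31.3 and 19.5 in E2Fa-Dpa replicates 1 to 4, against 8.95, 9.54, 17.9 and 12.6 in wildtype replicates 1 to 4. Every E2Fa-Dpa array lay above every wildtype array, although the lowest E2Fa-Dpa value and the highest wildtype value differed by less than 2 units. This was the only member whose groups did not overlap, and 16.3% of all probe sets had groups that did not overlap, 9.53% with E2Fa-Dpa higher. The mean was 24.0 ± 5.50 in E2Fa-Dpa seedlings and 12.2 ± 4.07 in wildtype seedlings (SD, n = 4 each). The log2 fold change was 0.50 ± 0.147 (SE), with a 95% interval of 0.17 to 0.83 and an adjusted p of 0.0724 by limma. The signal of wildtype is close to the added constant: 3 of 4 wildtype arrays were under 16 and none of the E2Fa-Dpa arrays was. With a constant of 1 in place of 16 the log2 fold change was 0.94, and the adjusted p of 0.0929 was also above the threshold. Without wildtype replicate 3, the highest wildtype array, WRKY53 passed with 0.59 and an adjusted p of 0.0438, and it did not pass when any of the other 7 arrays was left out (adjusted p up to 0.172).

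WRKY47 is a subgroup IIb member that has been linked in Arabidopsis to aluminium tolerance through genes of the cell wall. Its signal was 80.0, 152, 190 and 92.4 in E2Fa-Dpa replicates 1 to 4, against 84.4, 55.3, 66.2 and 53.8 in wildtype replicates 1 to 4. E2Fa-Dpa replicates 2 and 3 stood high above the rest, while E2Fa-Dpa replicate 1 lay just under wildtype replicate 1, so that the groups overlap by 1 array on each side. The mean was 129 ± 51.5 in E2Fa-Dpa seedlings and 64.9 ± 14.1 in wildtype seedlings (SD, n = 4 each). WRKY47 had the largest log2 fold change of the 6, 0.78 ± 0.249 (SE), with a 95% interval of 0.22 to 1.34 that still includes a 2-fold change. The adjusted p was 0.0948, and it lay between 0.0751 and 0.201 over the 8 fits that each left out 1 array. Of all probe sets, 5.90% had a larger fold change in either direction.

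WRKY6, known from leaf senescence and pathogen defence, also represses the phosphate exporter gene PHO1. Its signal was 54.3, 83.5, 60.5 and 48.3 in E2Fa-Dpa replicates 1 to 4, against 61.4, 44.7, 42.4 and 47.1 in wildtype replicates 1 to 4. E2Fa-Dpa replicate 2 was the highest array, and wildtype replicate 1 lay above the other 3 E2Fa-Dpa arrays. The log2 fold change was 0.25 ± 0.169 (SE, adjusted p = 0.431 by limma), with an interval of -0.13 to 0.63.

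WRKY42, its close relative and another repressor of PHO1, was dim on every array. Its signal was 0.473, 1.93, 1.76 and 1.29 in E2Fa-Dpa replicates 1 to 4, against 3.00, 3.14, 1.70 and 1.37 in wildtype replicates 1 to 4. All 8 values lie far under 16, so the log2 scale used here compresses any difference. The log2 fold change was -0.08 ± 0.0627 (SE, adjusted p = 0.530 by limma) and the groups overlapped. With a constant of 1 it was -0.49, again not past the threshold (adjusted p = 0.485). Detection calls were not used here, so whether this probe set measured its transcript at all cannot be told from the signal alone. Differences between the 3 members of subgroup IIb were not tested.

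WRKY22 acts downstream of the flagellin receptor and its kinase cascade in immunity and also in senescence induced by darkness. Its signal was 45.3, 74.5, 108 and 53.9 in E2Fa-Dpa replicates 1 to 4, against 80.3, 83.2, 24.0 and 42.5 in wildtype replicates 1 to 4. The arrays of both groups were interleaved over a wide range, with a coefficient of variation of 39.8% in E2Fa-Dpa and 50.4% in wildtype. Only 4.04% of all probe sets had a larger residual SD than the 0.545 of WRKY22 on the log2 scale. Its log2 fold change of 0.28 had an interval of -0.45 to 1.01 (adjusted p = 0.676 by limma), so neither no change nor a 2-fold rise lies outside it.

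WRKY20, the group I member, was the steadiest of the members with signals above 16, with coefficients of variation of 14.6% in E2Fa-Dpa and 11.7% in wildtype. Its signal was 107, 142, 136 and 109 in E2Fa-Dpa replicates 1 to 4, against 119, 113, 92.1 and 99.4 in wildtype replicates 1 to 4. E2Fa-Dpa replicates 2 and 3 were the highest arrays, and E2Fa-Dpa replicates 1 and 4 lay within the wildtype range. The log2 fold change was 0.19 ± 0.136 (SE, adjusted p = 0.455 by limma), with an interval of -0.11 to 0.49.

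Over the 6 members the median log2 fold change was 0.26, with 5 above 0 and 1 below, while over all 22746 probe sets the median was 0.00403 and 50.8% lay above 0. These values depend on scaling. With cyclic loess scaling they were 0.18 for WRKY6, 0.11 for WRKY20, 0.21 for WRKY22 and 0.70 for WRKY47. WRKY53 had 0.52 and WRKY42 -0.05 there, and the median over all probe sets was 0.00527. The part of scaling and of signal level in the contrast with all probe sets was not tested. For 4 of the 6, WRKY6, WRKY20, WRKY42 and WRKY53, the 95% interval lay inside a 2-fold change in either direction on the log2(signal + 16) scale. For WRKY22 and WRKY47 it did not. For WRKY42 and WRKY53 this does not bound the change in signal, since the constant compresses differences at such low signals. All these intervals are from the fit without a block and treat the 4 arrays of a group as independent. Intervals from the fits with close pairs are not given, so the bound may not hold for WRKY6 and WRKY20 either. For WRKY53 the ratio of mean signals, E2Fa-Dpa over wildtype, was 1.96. For WRKY42 the mean signals were 1.36 in E2Fa-Dpa and 2.30 in wildtype seedlings, too near the floor for a ratio to be read. The median residual SD of the members was 0.214, against 0.226 over all probe sets. In 5 of the 6 members the array with the highest signal was E2Fa-Dpa replicate 2 or 3, which are the pair of E2Fa-Dpa arrays without control RNA. The exception was WRKY42, whose highest array was wildtype replicate 2. E2Fa-Dpa replicates 2 and 3 also had the highest median signals over all tested probe sets, 43.7 and 44.4, against 37.9 to 41.4 on the other arrays. The share of all probe sets with their highest signal on these arrays was not counted.

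**Figure D2:**
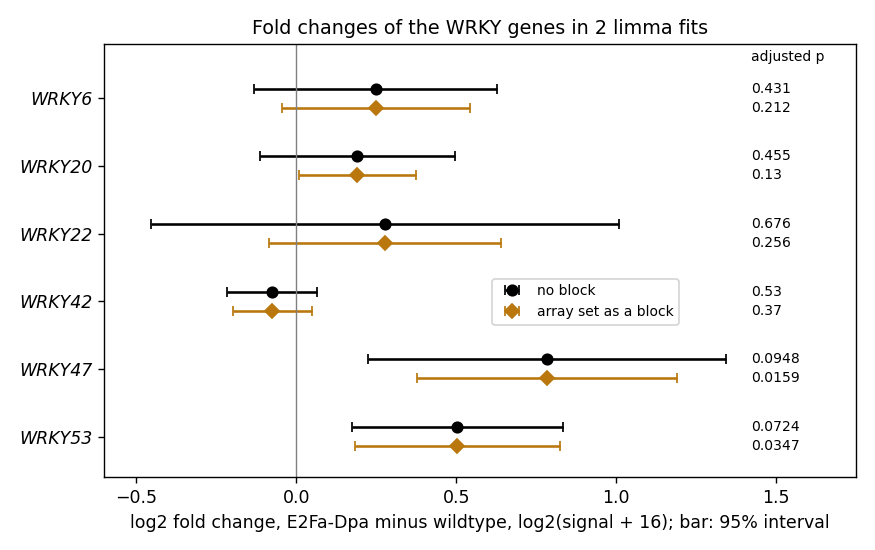
Log2 fold change of each WRKY gene (horizontal axis, E2Fa-Dpa minus wildtype on the log2(signal + 16) scale) with its 95% interval, from limma without a block (black circles) and blocked by array set (brown diamonds); adjusted p-values over all probe sets stand at the right. The block leaves the fold changes in place and narrows the intervals, and WRKY47 and WRKY53 reach adjusted p-values of 0.0159 and 0.0347.

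The array sets bear on these values directly. In the fit that held the array set as a block, WRKY47 and WRKY53 were higher in E2Fa-Dpa seedlings with adjusted p-values of 0.0159 and 0.0347 by limma. That fit called 21.4% of all probe sets, and 11.7% as higher in E2Fa-Dpa, so the 2 of 6 members are read against a high background. The fold changes are the same as without the block, since the groups are balanced over the sets. The remaining members had adjusted p-values between 0.13 (WRKY20) and 0.37 (WRKY42) there. The block fit rests mostly on the spread within close pairs of arrays. The fits with the pairs as a random block and averaged, in which neither gene passed, called 2% and 0.00879% of all probe sets.

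Split by array set, both fold changes were smaller in the arrays with control RNA than in those without. With control RNA, WRKY47 averaged 86.2 in E2Fa-Dpa replicates 1 and 4, against 60.0 in wildtype replicates 3 and 4, a difference of 0.43 on the log2 scale (limma within the set, adjusted p = 0.177). WRKY53 averaged 19.7 in the same E2Fa-Dpa pair, against 15.2 in the wildtype pair, a difference of 0.20 (adjusted p = 0.447). In that set 6.7% of all probe sets were called, and neither gene was among them. Without control RNA, WRKY47 averaged 171 in E2Fa-Dpa replicates 2 and 3, against 69.9 in wildtype replicates 1 and 2, which is 1.14 on the log2 scale (adjusted p = 0.0278). WRKY53 averaged 28.3 in that E2Fa-Dpa pair, against 9.24 in the wildtype pair, which is 0.81 (adjusted p = 0.0306). Both genes were called there, in a set that called 10.7% of all probe sets.

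The difference between the sets in the group effect was tested by an interaction term, with control RNA minus without. It was -0.71 for WRKY47 (adjusted p = 0.383 by limma) and -0.61 for WRKY53 (adjusted p = 0.310). None of the 6 members passed this test, and 0.0835% of all probe sets did. WRKY6 and WRKY20 had log2 fold changes of 0.15 and 0.15 with control RNA and 0.35 and 0.23 without it. WRKY22 ran the other way, with 0.44 with control RNA and 0.12 without it. All 6 members had the same sign of fold change in both sets, and the share of all probe sets that did was not counted.

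**Figure D3:**
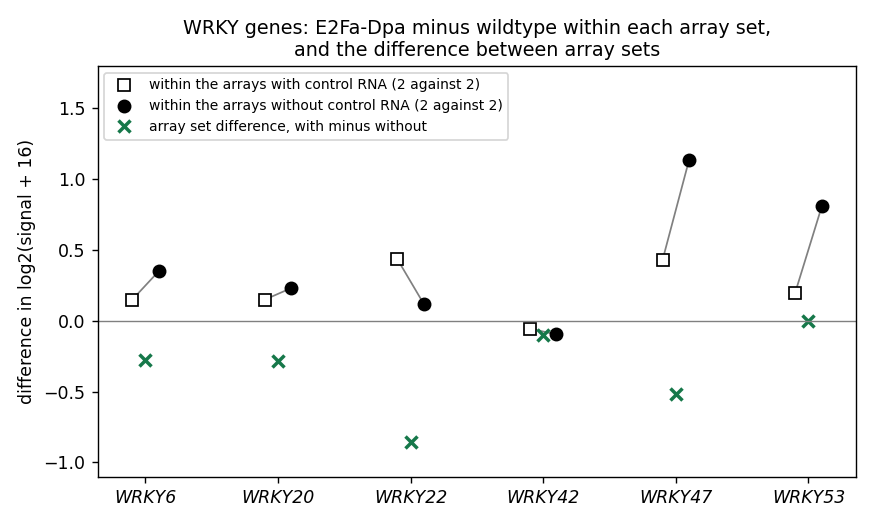
Differences in log2(signal + 16) for each WRKY gene: E2Fa-Dpa minus wildtype within the arrays with control RNA (open squares) and without it (filled circles), 2 arrays against 2 in each, and the difference between the array sets with the group in the model (green crosses). WRKY47 and WRKY53 have their larger fold changes without control RNA (1.14 and 0.81), and the array set difference of WRKY22 (-0.85) is larger than its fold change in either set.

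For 4 members, WRKY6, WRKY20, WRKY22 and WRKY42, the difference between array sets was larger in size than that between groups. The share of all probe sets for which this held was not counted. Median signals over all tested probe sets were also lower with control RNA. In wildtype they were 37.9 and 39.5 with it and 40.2 and 41.4 without it. In E2Fa-Dpa they were 40.6 and 40.0 with it and 43.7 and 44.4 without it. The part of this general shift in the values of the WRKY genes was not tested. WRKY22 differed by -0.85 on the log2 scale, arrays with control RNA minus arrays without (adjusted p = 0.00669 by limma with the group in the model). Its 4 values with control RNA, 45.3 and 53.9 in E2Fa-Dpa and 24.0 and 42.5 in wildtype, all lay under its 4 values without it, 74.5 and 108 in E2Fa-Dpa and 80.3 and 83.2 in wildtype. WRKY20 differed by -0.28 (adjusted p = 0.0332). These were the 2 members called, in a comparison that called 26.3% of all probe sets. The sets did not overlap for WRKY20, WRKY22 and the dim WRKY42, 3 of 6 members, and for 20.1% of all probe sets. WRKY47 had -0.51 (adjusted p = 0.0639), WRKY6 -0.28 and WRKY42 -0.10, and WRKY53 had -0.00178, as its lower value with control RNA in E2Fa-Dpa was matched by a higher one in wildtype. What differed between the array sets besides the control RNA is not stated in the labels.

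ZAP1, known as WRKY1, is a group I protein named in RefSeq as a zinc-dependent activator. Its signal was 123, 136, 130 and 133 in E2Fa-Dpa replicates 1 to 4, against 126, 85.1, 97.0 and 123 in wildtype replicates 1 to 4. The E2Fa-Dpa arrays were close together, and wildtype replicate 1 lay inside their range. The log2 fold change of 0.26 had an adjusted p of 0.300 by limma, so counting ZAP1 as a member leaves the number of called genes at 0.

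Of the genes listed as partners of WRKY factors or for processes they take part in, few were named by a probe set. Of 26 genes of salicylic acid and immune signalling 3 were measured, of 9 genes of trichome and seed coat fate around the WRKY gene TTG2 1 was measured, and of 11 kinases and binding partners of WRKY proteins and 4 senescence genes none was. BIK1, from the immune list and not the partner list, is a receptor-associated kinase that relays the signal of the flagellin receptor. It rose, and a link to the WRKY members was not tested. Its signal was 209, 223, 223 and 212 in E2Fa-Dpa replicates 1 to 4, against 115, 137, 139 and 114 in wildtype replicates 1 to 4, and the groups lie far apart. The log2 fold change was 0.71 ± 0.110 (SE, adjusted p = 0.00571 by limma), it was 0.68 with and 0.75 without control RNA, and it passed whichever array was left out (adjusted p up to 0.0245). It did not pass within the arrays with control RNA (adjusted p = 0.0629), with the close pairs as a random block (0.0583) or with pairs averaged (0.360).

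The other 3 did not pass. SAG101, a partner of the immune regulator EDS1, averaged 28.1 ± 5.19 in E2Fa-Dpa seedlings and 24.3 ± 4.83 in wildtype seedlings (SD, n = 4 each), with an adjusted p of 0.649 by limma. The defensin PDF1.2, a jasmonate marker that WRKY factors of the salicylic acid branch repress, averaged 5.44 ± 2.39 and was under 16 on all E2Fa-Dpa arrays, against 11.9 ± 6.37 in wildtype (adjusted p = 0.214). TRY, an inhibitor of trichome fate, averaged 2.70 ± 1.87 in E2Fa-Dpa and 6.85 ± 4.57 in wildtype (adjusted p = 0.294). For both PDF1.2 and TRY the signals are so near the floor of the arrays that no fold change is given.

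The labelled whole plant was checked against markers of organs and cell types. Each of the 4 root genes and the 4 photosynthesis genes had a signal above 16 on all 8 arrays, and of the stomatal genes MUTE was under 16 on all 8 arrays. The root genes summed to 2728 to 3124 in E2Fa-Dpa arrays and 4007 to 5054 in wildtype arrays. All 4 were lower and 2, AT5G17820 and PYK10, fell. PYK10 makes up most of this sum, with a mean of 2586 in E2Fa-Dpa and 3923 in wildtype seedlings. EXPA7 and EXPA18 overlapped between groups (adjusted p = 0.512 and 0.294 by limma). The photosynthesis genes summed to 8630 to 10558 in E2Fa-Dpa arrays and 11101 to 13770 in wildtype arrays, all 4 were lower and 1 fell. The stomatal genes summed to 72.8 to 98.0 in E2Fa-Dpa arrays and 47.2 to 67.8 in wildtype arrays, with 3 of 3 higher and none past the threshold. Blocked by array set, 2 root genes and 3 photosynthesis genes (PRK, PSAN with adjusted p = 0.0236 and PSBY with 0.0226) fell and the stomatal gene SPCH rose (0.0383). Of all 22746 probe sets, 992 rose and 669 fell without the block, and 2653 rose and 2223 fell with it. The 3 markers that fell without the block kept their calls in 2 or 3 of the 8 fits that left out 1 array. The part of these organ markers in the values of the WRKY genes was not tested.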

How the data were processed

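The deposited table holds 1 signal intensity per probe set for each of 8 arrays; the authors made these values with MAS5, per the submitters' processing notes, and the version is not given in the sources used here. Of 22810 probe sets, 64 manufacturer's controls were left out. Gene names came from the platform annotation, in which 13513 probe sets name 1 gene, 503 several, and 8730 are not listed; 13436 of the 13513 matched the RefSeq table (TAIR10.1) by gene number, and no coordinates were used. Signals were analysed as log2(signal + 16) with limma 3.58.1 in R 4.3.3 (lmFit, eBayes with a trend). Every adjusted p-value is over all tested probe sets. On simulated data of 22746 probe sets for this comparison, the fit found 63 of 100 2-fold changes and 97 of 100 4-fold changes, made on the log2 scale, beside 10 false calls. The simulated noise was independent between arrays, without array sets or close pairs. In the fit with the pairs as a random block the correlation within pairs was 0.504, so these figures do not carry over to the real arrays. Array sets were read from the dap control probe sets; no arrays held identical values. The number of arrays limits the precision, and 30.3% to 35.7% of signals per array lay under 16. The members, lists, array sets and alternatives were chosen with earlier results of these data known. All WRKY members are named; list genes are named where measured. Promoter motifs and sequences were not used here.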

Additional observations from a re-analysis of the deposited data

How the results depend on the processing

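The number of WRKY genes called was 0 of 6 by limma (2 by unadjusted p) and stayed 0 with a constant of 1 or 64, a mean signal of at least 32 (which leaves out WRKY42 and WRKY53), quantile, cyclic loess or median scaling, eBayes without a trend, close array pairs treated as a random block or averaged, within the arrays with control RNA, and with ZAP1 added. It was 2 when the array set was blocked and 2 within the arrays without control RNA, WRKY47 and WRKY53 each time, and 0 to 1 when single arrays were left out (1, WRKY53, without wildtype replicate 3). Over these alternatives the log2 fold change ranged from 0.43 to 1.14 for WRKY47, 0.20 to 0.94 for WRKY53, 0.12 to 0.35 for WRKY6, 0.11 to 0.25 for WRKY20, 0.02 to 0.45 for WRKY22 and -0.49 to -0.02 for WRKY42, and no sign changed. The count over all probe sets, 1661, came to 4876 when the array set was blocked, 2423 within the arrays without control RNA, 454 with pairs as a random block, 2 with pairs averaged and 674 to 1696 with single arrays left out (lowest without E2Fa-Dpa replicate 4). Its split was 992 higher and 669 lower, and with median centring 781 higher and 1080 lower. Whether equal replicate numbers mark shared samples could not be told. Deviations of same-numbered arrays correlated at 0.443 and 0.526 for replicates 2 and 4, which lie in the same array set in both groups. For replicates 1 and 3, which lie in opposite sets, the correlations were -0.519 and -0.359. The array set was not removed from these deviations, so the check cannot separate it from sharing. Of 8 arrays, 1 correlated best with its own number. With the replicate block 854 probe sets and 0 WRKY genes were called, with adjusted p of 0.138 for WRKY47 and 0.0945 for WRKY53. Signals near or under 16 limit what can be said of WRKY42 and WRKY53.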
